A study of Mus musculus with 51 samples.

Results

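Mitochondrial fatty acid oxidation was followed through 32 genes, listed by name, that carry fatty acids into the mitochondrion, break them down there and pass on the products. All 32 symbols matched 1 Ensembl gene each among the 53801 genes of the counts table, and 31 were abundant enough to be tested among 17015 genes. The exception was Acss1, the mitochondrial enzyme that activates acetate, whose mean level did not exceed 0.0521 CPM in any group (CPM, a gene's counts scaled to a common library size). RNA came from C3H/10T1/2-SAM pre-adipocytes, a mouse mesenchymal line in which every library, controls included, carried a dead Cas9 fused to VP64 together with MS2-P65-HSF1, so that a guide RNA switches on the endogenous gene it targets. Cells were transfected with 250 ng of plasmid in all: an empty vector (EV), a Pparg guide (P), or Pparg and Ybx1 guides together (PY). All 3 kinds of cells received 5 µM rosiglitazone, a ligand of the receptor that Pparg encodes, on day 0, which was 48 h after transfection. RNA was sampled on days 0, 2 and 4 in 6 experiments, giving 5, 6 and 6 EV libraries, 5, 6 and 6 P libraries, and 6, 5 and 6 PY libraries. The labels do not state how many cells took up plasmid, nor whether day 0 RNA was taken before the drug. The cells are 1 line, so n counts experiments of that line.

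Long fatty acids reach the mitochondrial matrix as carnitine esters: carnitine palmitoyltransferase 1 makes the ester, carnitine palmitoyltransferase 2 reverses it inside, and malonyl-CoA blocks the first step. In the matrix each turn of the beta-oxidation spiral removes a pair of carbons through a dehydrogenase, a hydratase, a second dehydrogenase and a thiolase, and the electrons of the first step pass through electron transfer flavoprotein to the respiratory chain. Brown and beige fat cells burn fatty acids for heat by this route, white fat cells use it less, and many of its genes are known targets of the PPAR family of nuclear receptors, to which Pparg belongs.

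RefSeq (GRCm38.p6) promoter windows were at hand for 25 of the 32 genes, and 4 stretches are printed because results below turn on these genes. Hadha and Hadhb, the subunits of the trifunctional protein, lie head to head and share the short gap between their starts. In GENCODE (GRCm38) Hadha spans chr5:30118304-30155162 on the minus strand and Hadhb chr5:30155248-30184593 on the plus strand. Etfa and Echs1 hold the closest matches among the members to the PPAR element, written AGGTCANAGGTCA and searched on both strands. The stretches of Etfa, Echs1 and Acadvl read 5′ to 3′ on the gene's strand. Those of Etfa and Acadvl end at the base before the RefSeq start, and that of Echs1 ends at the base before the GENCODE gene model, which begins upstream of the RefSeq start and lies there in an intron of Paox on the other strand. Capitals mark the PPAR-element match of Etfa and Echs1 and the half-site AGGTCA of Acadvl, and the gap between Hadha and Hadhb has no capitals. The Hadha and Hadhb gap lies at chr5:30155163-30155247 and is shown on the plus strand. The Etfa stretch is chr9:55512244-55512493, the Echs1 stretch chr7:140116477-140116671 and the Acadvl stretch chr11:70015429-70015678, all on the minus strand.
Hadha and Hadhb gap: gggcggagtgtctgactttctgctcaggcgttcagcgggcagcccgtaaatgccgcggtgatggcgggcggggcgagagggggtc
Etfa: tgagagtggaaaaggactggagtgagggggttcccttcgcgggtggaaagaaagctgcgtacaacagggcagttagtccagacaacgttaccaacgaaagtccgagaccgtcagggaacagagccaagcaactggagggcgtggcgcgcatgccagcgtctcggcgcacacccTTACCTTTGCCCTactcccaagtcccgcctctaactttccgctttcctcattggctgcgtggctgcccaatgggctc
Echs1: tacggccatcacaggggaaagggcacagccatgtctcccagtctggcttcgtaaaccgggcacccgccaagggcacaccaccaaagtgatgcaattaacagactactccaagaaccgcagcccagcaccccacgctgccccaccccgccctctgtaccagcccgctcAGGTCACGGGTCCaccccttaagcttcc
Acadvl: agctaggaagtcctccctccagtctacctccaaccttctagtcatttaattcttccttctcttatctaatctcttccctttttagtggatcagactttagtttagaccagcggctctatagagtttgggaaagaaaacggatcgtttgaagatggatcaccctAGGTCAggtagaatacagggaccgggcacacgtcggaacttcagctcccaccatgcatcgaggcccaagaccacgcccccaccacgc

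No member window held the PPAR element with at most 1 mismatch, which 0.484% of all 32851 RefSeq windows of the same length held. With at most 2 mismatches it was in 2 of the 25 member windows, against 3.24% of all windows. In Echs1 the match ran from 83 to 71 bases before the RefSeq start on the gene's own strand, and in Etfa from 77 to 65 bases before it on the other strand. The half-site alone, searched on both strands and contained in any exact PPAR element, was in 5 member windows (Acadm, Acadvl, Cpt1a, Echs1 and Pcca), or 20%, against 14% of all windows. The exact element of estrogen-related receptors, TCAAGGTCA, which also contains the half-site, was in none of the 25 and in 0.387% of all windows. These counts describe letters in short windows, and binding was not measured.

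In the fit of all libraries, most of the tested members were higher with the Pparg guide than with the empty vector by day 4. On day 2, 14 of the 31 tested members were higher in P than in EV and none lower, where 2.77% of all tested genes were higher. On day 4, 19 of 31 were higher and none lower, where 5.18% of all genes were higher. The median member stood 1.97-fold above EV on day 2 and 2.13-fold on day 4 (log2 0.98 and 1.09), beside medians over all genes of -0.02 and -0.06 on the log2 scale. On day 0 no member passed the test, and 0.00588% of all genes were higher. The day 0 median of the members was 0.16 on the log2 scale. An unadjusted p under 0.05 was found for 2 members and for 237 of all 17015 genes, while DESeq2 also called 0 members. Calls are from edgeR's quasi-likelihood test, with p-values adjusted by Benjamini and Hochberg's method over all 17015 genes and a threshold of 0.05, and folds are given with 95% intervals in brackets. With each experiment entered as a replicate block, 22 members were called on day 2 in place of 14, where 4.67% of all genes were higher under the block. Without experiment 5 the day 2 count was 5, and 171 of all genes were higher in place of 471. Cpt2, Crat, Hadha, Hadhb and Acot2 were among the members that no longer passed. The day 4 count was 13 without experiment 2 and 13 without experiment 5. Of all genes, 526 and 593 were then higher in place of 881. The p-values measure the spread between experiments.

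**Figure D1:**
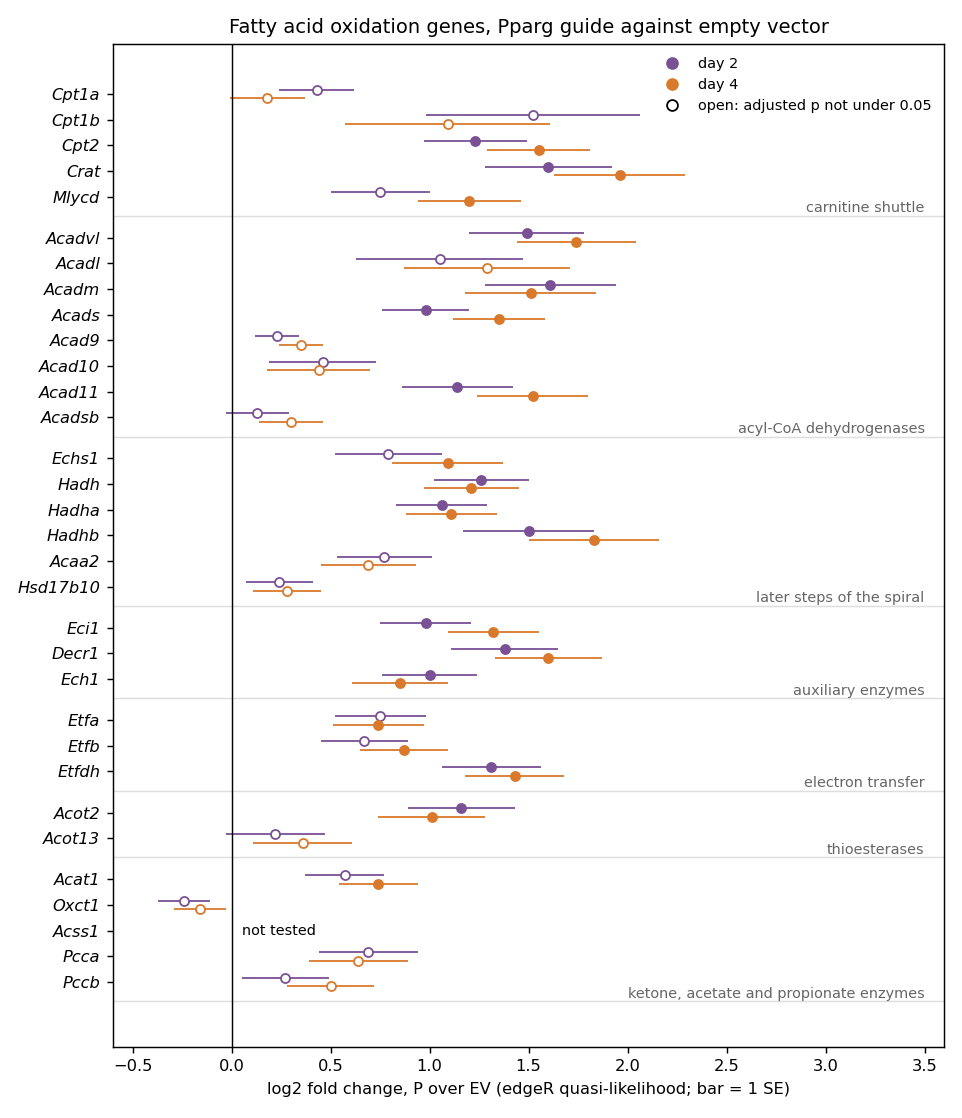
Log2 fold change of P over EV for each member (rows, grouped by role) on day 2 and day 4, with bars of 1 SE from the edgeR fit; filled points passed an adjusted p under 0.05. The points of Crat, Hadhb and Acadvl lie farthest right on day 4 (1.96, 1.83 and 1.74), and Oxct1 lies left of 0 on both days.

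Libraries held from 3381870 to 114566739 counts. The labels were checked on the guides' targets: Pparg was 4.69-fold higher in P than in EV on day 0 (adjusted p = 1.41e-04, edgeR), and Ybx1 was 3.05-fold higher in PY than in P (adjusted p = 2.49e-08). All 8 mesenchymal markers tested were present, summing on day 4 to between 10800 and 19000 CPM in EV, 6990 and 16600 in P, and 6560 and 15400 in PY. Fat cell genes moved with the members: 8 markers (Adipoq, Fabp4, Plin1, Cidec, Lipe, Cebpa, Lpl and Cfd) summed to between 50 and 465 CPM in EV on day 4, 2880 and 11700 in P, and 1400 and 13600 in PY. The same sum was 69.3 to 217 CPM in EV and 1740 to 8940 in P on day 2, and 12.8 to 26.5 and 18 to 386 on day 0. Of 8 brown and beige markers, Ucp1 stayed under 1 CPM in every library, and their sum on day 4 was 0.511 to 39.8 CPM in EV, 8.38 to 82.8 in P and 2.29 to 88.2 in PY. Ppargc1a alone had up to 38.2 CPM in EV and 38.1 in P. Kcnk3 had at most 0.322 CPM in EV and at least 3.7 in P, and Cox8b at most 0.901 and at least 2.89. These genes were named after their values were seen. Cidea, Elovl3, Dio2 and Prdm16 of that list are not given by gene, so the named ones do not stand for it. Over all genes, 3% had every P library above every EV library on day 4. Among markers of other tissues, Myod1, Myog, Myf5, Ckm, Actn2 and Myh3 of 10 muscle markers and all 6 liver markers stayed under 1 CPM throughout. The sum of 10 muscle markers on day 4 was 1.22 to 48.6 CPM in EV and 1.79 to 43.9 in P. The 6 macrophage markers summed to 8.13 to 15.7 CPM in EV and 7.66 to 13.3 in P, with Ptprc and Adgre1 under 1 CPM everywhere. In bulk RNA, more fat cells and more RNA per fat cell cannot be told apart, and the part of fat cell number in these results was not tested.

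The members' summed level was 1330 ± 105 CPM in EV on day 0 (SD, n = 5), 1750 ± 196 on day 2 (n = 6) and 1980 ± 289 on day 4 (n = 6). In P it was 1490 ± 73 CPM on day 0 (n = 5), 3140 ± 1020 on day 2 (n = 6) and 3820 ± 1100 on day 4 (n = 6). In PY it was 1490 ± 182, 3650 ± 1210 and 4340 ± 1400 CPM (n = 6, 5 and 6). On day 4 all 6 P libraries (2550 to 5340 CPM) stood above all 6 EV libraries (1680 to 2420), while the PY libraries (2040 to 6100) overlapped with EV through PY replicate 4. As a share of all counts, the members took 0.133% in EV on day 0, 0.2% in EV on day 4 and 0.372% in P on day 4.

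**Figure D2:**
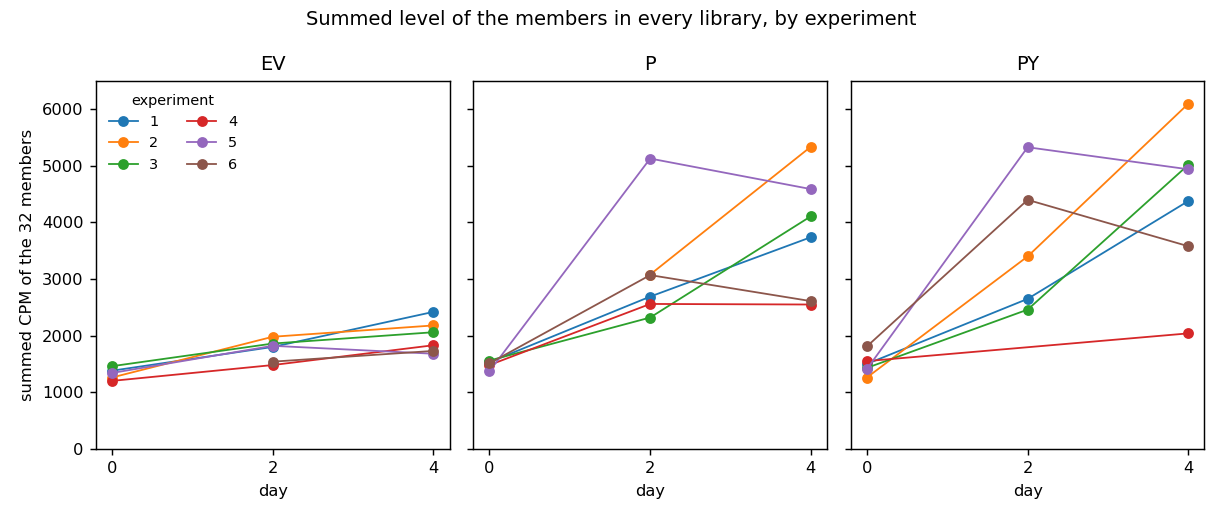
Summed CPM of the 32 members (y, linear) by day (x) in EV, P and PY, 1 point a library and lines joining libraries of 1 experiment; on day 0 EV lacks experiment 6 and P lacks experiment 2, and the PY line of experiment 4 skips day 2. In P, experiment 5 reached 5130 CPM on day 2 and experiment 2 reached 5340 CPM on day 4.

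Levels of different members were compared per kilobase of exon, with all annotated exons of a gene combined. The order therefore depends on which transcripts are annotated. In EV on day 0, Oxct1, which lets cells use ketone bodies, was the most abundant member at 61.8 ± 10.4 RPKM (CPM per kilobase; SD, n = 5), followed by Hsd17b10 at 39.1 ± 5.55, Acot13 at 33.6 ± 7.94 and Acaa2 at 25.1 ± 7.11 RPKM. Hsd17b10 and Acot13 differed by less than their spread. In EV on day 4 the order was Oxct1 at 86.4 ± 10.2, Acaa2 at 59.9 ± 17.3, Hsd17b10 at 48.5 ± 12.8 and Ech1 at 42.8 ± 12.2 RPKM (n = 6). Acaa2 was thus among the first 4 in EV on both days, and Ech1 on day 4 only. On day 0 in EV, Ech1 had ranked 9 of 32, at 14.9 ± 4.74 RPKM (n = 5). In P on day 4 the order was Acaa2 at 96.9 ± 29.9, Oxct1 at 77.1 ± 7.62, Ech1 at 76.9 ± 20.6, Acadm at 64.6 ± 22.4, Acadvl at 64.0 ± 23.7 and Crat at 63.3 ± 32.6 RPKM (n = 6), with neighbours in this order apart by less than their spread. Crat had ranked 16 of 32 in EV on the same day, at 16.2 ± 1.57 RPKM. At the low end in both groups stood Acad10, Cpt1b and Acss1, at 2.00, 0.287 and 0.0126 RPKM in P on day 4.

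Of the 5 genes of carnitine-dependent entry, Cpt2, Crat and Mlycd rose and the carnitine palmitoyltransferase 1 genes did not pass. Crat, the matrix carnitine acetyltransferase that buffers acetyl-CoA, had 75.1, 86.4 and 98.2 CPM in EV on day 4 (lowest, median and highest of 6 libraries) and 158, 312 and 604 CPM in P. The P libraries all lay above the EV libraries, and their spread was far wider. The difference was 3.9-fold [2.5 to 6.07] (adjusted p = 4.15e-05), the highest of the members, and 3.03-fold on day 2 (adjusted p = 0.00116). Cpt2, the inner membrane enzyme that releases acyl-CoA into the matrix, had 33.4, 45.7 and 56.3 CPM in EV and 61.6, 134 and 212 in P on day 4. Those groups did not overlap, and Cpt2 was 2.92-fold higher [2.06 to 4.15] (adjusted p = 4.16e-05), after 2.34-fold on day 2 (adjusted p = 0.00174).

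Mlycd, which breaks down the inhibitor malonyl-CoA, had 9.14, 10.2 and 14.7 CPM in EV on day 4 and 14.1, 21.3 and 47.6 in P, so the lowest P library overlapped with the highest EV library. It was 2.29-fold higher (adjusted p = 0.00114), and on day 2 1.68-fold (adjusted p = 0.129, or 0.0148 with the block). Cpt1a, the liver-type enzyme of the first step, ranged from 107 to 222 CPM in EV and from 132 to 269 in P on day 4, with medians of 153 and 164. Both groups split by experiment, with experiments 1 to 3 high and 4 to 6 low. The Cpt1a fold was 1.13 [0.876 to 1.47] (adjusted p = 0.803), and on day 2 it was 1.34 [1.04 to 1.74] (adjusted p = 0.39). Cpt1b, the muscle-type enzyme, was scarce: 0.433 ± 0.26 CPM in EV and 0.968 ± 0.541 in P on day 4 (n = 6), 2.13-fold [1.05 to 4.30] (adjusted p = 0.348). Of the exonic bases of Cpt1b, 81.4% are shared with Gm44502 on the same strand, so its count is uncertain.

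**Figure D3:**
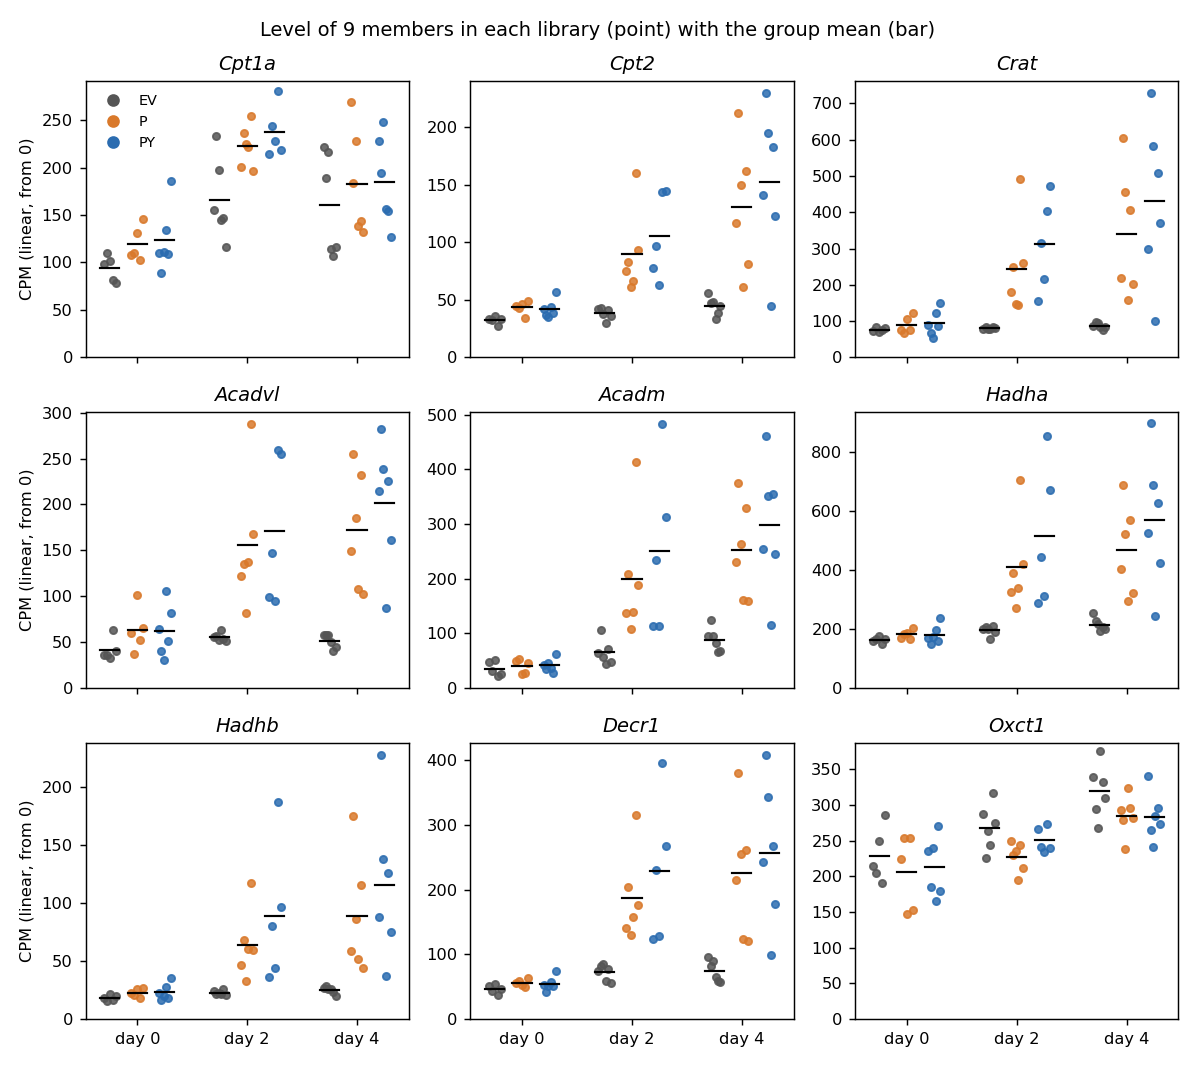
CPM (y, linear from 0) of 9 members in each library (points) with group means (bars), for EV, P and PY on days 0, 2 and 4. Crat, Cpt2, Acadvl, Acadm, Hadha, Hadhb and Decr1 stood higher in all P libraries than in all EV libraries on day 4, while Cpt1a and Oxct1 overlapped.

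The acyl-CoA dehydrogenases, which take the first electrons and are specialised by chain length, divided in the main fit. Acadvl, Acadm, Acads and Acad11 rose on both days and the other 4 did not pass. Acadvl, the very long chain enzyme, had 40.1, 54.0 and 58.2 CPM in EV and 102, 167 and 255 in P on day 4 (lowest, median, highest). The groups did not overlap, and the fold was 3.34 [2.24 to 4.98] (adjusted p = 5.32e-05), with 2.81 on day 2 (adjusted p = 8.50e-04). Exons of Dvl2 on the opposite strand cover 42.9% of the Acadvl exonic bases, and the strand setting of the counting is not given in the sources used here, so part of this count may come from Dvl2. Acadm, the medium chain enzyme, had 66.4, 88.8 and 124 CPM in EV and 159, 247 and 374 in P on day 4. Again the groups did not overlap, and the fold was 2.85 [1.83 to 4.45] (adjusted p = 0.00141) after 3.05 on day 2 (adjusted p = 0.00133).

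Acads, the short chain enzyme, had 36.1, 38.3 and 54.5 CPM in EV and 69.5, 92.0 and 156 in P on day 4, 2.55-fold [1.88 to 3.47] (adjusted p = 4.27e-05), without overlap. Acad11, which acts on longer chains and hydroxy acids, had 22.3, 24.8 and 30.4 CPM in EV and 37.3, 68.3 and 109 in P, 2.87-fold [1.95 to 4.21] (adjusted p = 1.90e-04), also without overlap. On day 2 Acads was 1.98-fold (adjusted p = 0.00487) and Acad11 2.20-fold higher (adjusted p = 0.0109), and both lost their day 2 call without P replicate 5. Acadl, the long chain enzyme, had a fold of 2.44 [1.37 to 4.33] on day 4 over groups that overlapped widely (13.6 to 61.2 CPM in EV and 30.9 to 171 in P), with adjusted p = 0.067, or 0.0101 with the block. Acadl also passed on day 4 with DESeq2 and without any 1 of 3 libraries. On day 2 Acadl was at 2.07-fold (adjusted p = 0.269, or 0.0251 with the block). Acad9, better known as a complex I assembly factor, had 1.28-fold [1.09 to 1.49] (24.9 to 35.5 CPM in EV and 29.1 to 47.7 in P, adjusted p = 0.0619, or 0.0121 with the block). Its day 4 call thus depended on the fit. It also passed with DESeq2, with RLE size factors, with a stricter filter and without any 1 of 5 libraries. Acad10, a less studied member of the family, had 6.31 to 10.3 CPM in EV and 7.80 to 17.0 in P (1.36-fold, adjusted p = 0.551), and Acadsb, which handles a branched chain from isoleucine, had 57.2 to 78.3 and 71.4 to 115 CPM (1.23-fold, adjusted p = 0.459).

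In the later steps of the spiral, 4 of 6 genes rose by day 4. Hadha and Hadhb encode the alpha and beta subunits of the trifunctional protein, which completes the spiral for long chains at the inner membrane. Hadha had 192, 211 and 255 CPM in EV on day 4 and 297, 463 and 688 in P, a 2.16-fold difference [1.59 to 2.95] (adjusted p = 6.90e-04). Hadhb had 19.7, 25.7 and 28.6 CPM in EV and 44.0, 72.4 and 175 in P, a 3.55-fold difference [2.27 to 5.56] (adjusted p = 1.24e-04). Neither gene's groups overlapped on day 2 or day 4, and their day 2 folds were 2.09 and 2.84 (adjusted p = 0.00243 and 0.00291). Whether the fold differed between these neighbours was not tested. Per kilobase of all annotated exons (8730 bases for Hadha and 6595 for Hadhb), Hadha was the more abundant of the pair in P on day 4. It had 53.5 ± 17.5 RPKM against 13.4 ± 7.57 (n = 6), a ratio that depends on those lengths.

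Hadh, the hydroxyacyl-CoA dehydrogenase for shorter chains, had 41.8, 54.9 and 71.9 CPM in EV and 77.1, 123 and 174 in P on day 4, 2.31-fold [1.67 to 3.19] (adjusted p = 4.36e-04) and without overlap. On day 2 it was 2.39-fold higher (adjusted p = 5.87e-04). Echs1, the short chain enoyl-CoA hydratase, had 26.2, 33.3 and 36.4 CPM in EV and 43.6, 55.5 and 118 in P on day 4, 2.13-fold [1.46 to 3.09] (adjusted p = 0.00795). Its day 4 groups did not overlap, its day 2 fold was 1.73 (adjusted p = 0.144, or 0.0333 with the block), and the day 4 call was lost when experiment 2 or experiment 5 was left out. Acaa2, the matrix thiolase, had 64.9 to 134 CPM in EV and 90.9 to 207 in P on day 4, 1.62-fold [1.17 to 2.23] (adjusted p = 0.0815, or 0.0203 with the block). On day 2 Acaa2 was at 1.71-fold (adjusted p = 0.0656, or 0.00893 with the block). On each of these days Acaa2 also passed with DESeq2 and without any 1 of 3 libraries. Hsd17b10, which also acts on branched chains and in mitochondrial transfer RNA processing, had 45.6 to 90.4 CPM in EV and 58.1 to 113 in P, 1.22-fold [0.966 to 1.53] (adjusted p = 0.549).

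All 3 auxiliary enzymes, which prepare unsaturated fatty acids for the spiral, rose on both days. Decr1, the 2,4-dienoyl-CoA reductase, had 56.6, 73.3 and 95.3 CPM in EV and 120, 235 and 381 in P on day 4, 3.04-fold [2.11 to 4.37] (adjusted p = 4.28e-05). Eci1, which shifts a double bond, had 24.2, 29.9 and 34.6 CPM in EV and 43.4, 73.2 and 115 in P, 2.49-fold [1.82 to 3.41] (adjusted p = 8.08e-05). Both sets of groups were apart, with day 2 folds of 2.60 for Decr1 (adjusted p = 7.00e-04) and 1.97 for Eci1 (adjusted p = 0.00654). Ech1, a dienoyl-CoA isomerase, had 70.1, 91.6 and 142 CPM in EV and 121, 179 and 235 in P on day 4, so these groups overlapped. It was 1.80-fold higher [1.29 to 2.5] (adjusted p = 0.0243) after 2.00-fold on day 2 (adjusted p = 0.00959). The day 4 call of Ech1 was lost without any 1 of 5 libraries (EV replicates 4, 5 and 6, P replicates 2 and 5), and the day 2 calls of Eci1 and Ech1 were lost without P replicate 5.

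The chain that carries electrons away rose by day 4 in all 3 genes. Etfdh, the dehydrogenase that hands electrons to ubiquinone, had 42.4, 46.5 and 53.3 CPM in EV and 81.4, 124 and 186 in P on day 4. These groups did not overlap, and the fold was 2.69 [1.92 to 3.76] (adjusted p = 7.19e-05), with 2.49 on day 2 (adjusted p = 4.77e-04). Etfa and Etfb, the subunits of electron transfer flavoprotein, passed on day 4 and not on day 2. Etfa had 35.6, 51.2 and 94.2 CPM in EV and 53.9, 109 and 127 in P, 1.67-fold (adjusted p = 0.0468), with overlap, and the call was lost without any 1 of 8 libraries (EV replicates 3 to 6 and P replicates 1, 2, 3 and 5). Etfb had 11.0, 12.9 and 25.7 CPM in EV and 16.5, 28.1 and 38.5 in P, 1.83-fold (adjusted p = 0.0075), with overlap, and the call was lost without experiment 2 or experiment 5. The day 2 folds were 1.68 for Etfa (adjusted p = 0.0721, or 0.0207 with the block) and 1.59 for Etfb (adjusted p = 0.0971, or 0.0319 with the block). Etfa also passed on day 2 with DESeq2, in a fit of the compared groups alone and without P replicate 3. Of the Etfb exonic bases, 53% are shared with Gm45233 on the same strand, so its level is uncertain.

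Of the thioesterases and the enzymes beyond the spiral, Acot2 and Acat1 were higher in P than in EV on day 4. Acot2, a matrix thioesterase, had 14.5, 20.7 and 24.3 CPM in EV and 23.8, 38.6 and 58.2 in P on day 4, 2.02-fold [1.40 to 2.91] (adjusted p = 0.0126), after 2.24-fold on day 2 (adjusted p = 0.00603). The day 4 groups overlapped by 1 library, and the call was lost without P replicate 2. Mean Acot2 in P was 37.5, 42.1 and 40.3 CPM on days 0, 2 and 4, and in EV 30.1, 18.9 and 19.9 CPM. The gap thus went with lower EV means after day 0 and little change in P. No thioesterase passed from day 0 to day 2 in EV or in P. Acot1 is a near copy of Acot2, so reads may be divided between them. Acot13, a thioesterase found at mitochondria, had 15.2 to 35.6 CPM in EV and 16.7 to 53.7 in P on day 4, 1.28-fold [0.917 to 1.80] (adjusted p = 0.639).

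Acat1, the thiolase that joins or splits acetoacetyl-CoA, had 80.9, 95.8 and 138 CPM in EV and 116, 177 and 223 in P on day 4, 1.67-fold [1.26 to 2.21] (adjusted p = 0.0181), with overlap. Its call was lost without any 1 of 4 libraries (EV replicates 5 and 6, P replicates 2 and 5), and on day 2 the fold was 1.49 (adjusted p = 0.161, or 0.0294 with the block). Oxct1 was the 1 tested member with a negative log2 fold change on both days. It had 267, 321 and 376 CPM in EV and 238, 287 and 324 in P on day 4, a ratio of 0.892 [0.753 to 1.06] (adjusted p = 0.69), and it was lower in P in all 6 experiments on that day. Pcca and Pccb, the subunits of propionyl-CoA carboxylase, which handles odd-chain ends, had 1.56-fold [1.11 to 2.20] (12.7 to 30.2 CPM in EV, 17.9 to 45.4 in P, adjusted p = 0.177, or 0.0202 with the block) and 1.41-fold [1.04 to 1.90] (31.9 to 46.5 and 36.3 to 71.3 CPM, adjusted p = 0.289). On day 2 Pcca was at 1.61-fold (adjusted p = 0.192, or 0.0104 with the block).

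Libraries of the same experiment gave the same direction for most members. On day 4, 26 of 31 members were higher in P in all 6 experiments, and on day 2, 24 of 31. The share of all genes higher in all 6 was not counted. Over all genes the median log2 ratio within an experiment ran from -0.07 to -0.02 on day 4 and from -0.03 to 0.00 on day 2. The median member ratio within an experiment ran from 1.51 in experiments 1 and 4 to 2.83 in experiment 5 on day 4, and from 1.25 in experiment 3 to 3.29 in experiment 5 on day 2. Fabp4, a fat cell marker, also varied: in P on day 2 it was 4420 CPM in experiment 5 and 1330 in experiment 3. All P libraries exceeded all EV libraries for 14 members on day 2, where 2.17% of all genes did so, and for 13 members on day 4, where 3% did.

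**Figure D4:**
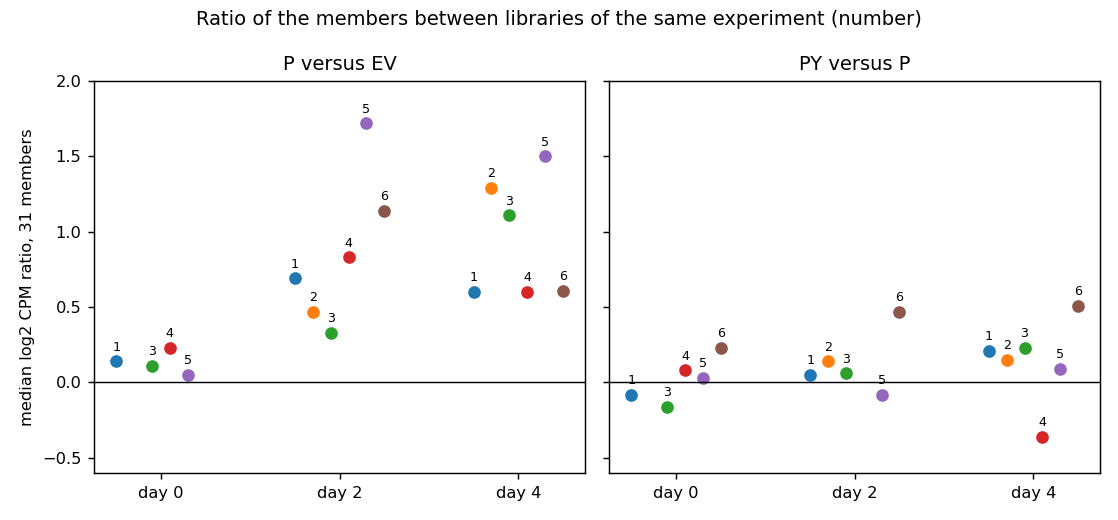
Median log2 CPM ratio over the 31 tested members (y) between libraries of the same experiment (number beside the point), for P over EV and PY over P on each day (x). For P over EV the points lie from 0.33 to 1.72 on day 2 and from 0.60 to 1.5 on day 4, and for PY over P experiment 4 lies at -0.36 on day 4.

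Whether the difference between P and EV itself grew with time was tested in the same fit. From day 0 to day 2 no member passed (0.0588% of all genes did), nor from day 2 to day 4 (0% of all genes). At an unadjusted p under 0.05 there were 15 and 0 members, beside 544 and 167 of all 17015 genes, and DESeq2 called 0 members in both. From day 0 to day 4 no member passed either, where 0.306% of all genes did. There 16 members had an unadjusted p under 0.05, as did 1029 of all genes. The smallest adjusted p was 0.0585, for Acad11, with an estimate of 3.19-fold [1.81 to 5.62]. Crat followed at 3.31-fold [1.74 to 6.28] (adjusted p = 0.0937). The count of members past the threshold depended on the fit. It was 3 with the replicate block (1.17% of all genes), 4 with DESeq2 and 7 with the 4 compared groups alone. Over all genes, 195 were called with DESeq2 and 164 with the compared groups alone, against 52 in the main fit. Day 0 levels show where the members started. Crat on day 0 had 72.9, 82.5, 69.1, 75.9 and 80.8 CPM in the 5 EV libraries and 76.1, 66.4, 107, 76.8 and 123 in the 5 P libraries. Those groups overlapped, at 1.18-fold (adjusted p = 1).

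Some members rose with time in EV, which also received rosiglitazone. From day 0 to day 2 in EV, 4 of 31 passed, beside 2.89% of all genes: Ech1 at 2.29-fold (adjusted p = 0.0033), Acaa2 at 1.93-fold (0.0152), Pccb at 1.78-fold (0.0232) and Cpt1a at 1.76-fold (adjusted p = 0.00953). Cpt1a had 98.6, 110, 102, 81.7 and 77.9 CPM in the 5 EV libraries of day 0, and 116, 151 and 233 (lowest, median, highest) on day 2. Every day 2 library of EV was above every day 0 library. The EV count was 8 with the replicate block, under which 10.1% of all genes were higher. Without the block it was 1 without experiment 2 or without experiment 5 (126 and 150 of all genes, in place of 491). It was 2 without EV day 0 replicate 4 or 5. In P over the same interval 22 members rose (7.01% of all genes) and in PY 27 (11.4%), with folds of 4.93 and 6.03 for Acadm, the largest in each. Without experiment 5 the P count was 12, with 405 of all genes higher in place of 1192. Members that did not pass in PY were Cpt1b, Acot2, Acot13 and Oxct1. From day 2 to day 4 no member passed in EV (0.0294% of genes) or in PY (0% of genes), and DESeq2 called 0 in both. At an unadjusted p under 0.05 there were 4 members in EV and 4 in PY, beside 3077 and 1189 of all 17015 genes. In P only Pccb passed (1.83-fold, adjusted p = 0.0364, beside 0.558% of genes). Here the block gave 2 members in EV (10.3% of all genes under the block), 7 in P (9.87%) and 2 in PY (2.59%). The P count without the block ran from 0 to 6 as single libraries were left out, with 6 without P day 2 replicate 5. Pccb did not pass between P and EV on either day, while its level in EV went from 13.7 ± 2.14 CPM (n = 5) to 24.3 ± 4.65 and 38.2 ± 5.85 (n = 6 each) over days 0, 2 and 4. Day of culture and time under the drug cannot be told apart, since all cells received it.

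Adding the Ybx1 guide changed no member past the threshold. Between PY and P, 0 of 31 passed on days 0, 2 and 4, where 0.0294%, 0.0118% and 0.0176% of all genes were higher in PY. No member had an unadjusted p under 0.05 on any of these days (106, 167 and 107 of all genes did), and DESeq2 and the block also called 0 members. On day 2 all 31 estimates were positive with a median of 0.19 on the log2 scale, and on day 4 29 were positive with a median of 0.18, beside 0.00 and 0.01 over all genes. On day 0, 15 were positive with a median of -0.01. Over all genes, 45.4%, 50.2% and 53.8% of estimates were positive on days 0, 2 and 4. Hadhb had the largest estimates, 1.40-fold on day 2 [0.888 to 2.20] and 1.30-fold on day 4 [0.84 to 2.00]. Its PY libraries of day 2 had 36.3, 80.6, 44.3, 187 and 96.7 CPM, and the 6 P libraries 33.0, 60.0 and 117 (lowest, median, highest). These groups overlapped over most of their range. Hadha was 1.22-fold on day 4 [0.897 to 1.66], and Crat 1.27-fold [0.825 to 1.94]. Each of these intervals includes both a rise and a fall.

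Experiments did not share a direction between PY and P. On day 2, where PY has no library from experiment 4, 12 of 31 members were higher in experiment 5 (median ratio 0.947), 17 in experiment 1, 19 in experiment 3, 28 in experiment 2 and 29 in experiment 6. On day 4, in 5 experiments 25 to 29 of 31 members were higher in PY than in P, with median ratios of 1.07 to 1.42, while in experiment 4 only 2 were higher and the median ratio was 0.782. Fabp4 in that experiment was 1020 CPM in PY and 1490 in P, whereas in the other 5 it was higher in PY. With experiment 4 left out, still no member passed. Over all genes the median log2 ratio of PY to P within an experiment ran from -0.05 to 0.01 on day 2. On day 4 it ran from -0.02 to 0.05. The share of all genes higher in PY within an experiment was not counted.

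The comparison of PY with EV uses the EV libraries of the comparison of P with EV, so the counts are given side by side only. On day 0 no member passed (0.047% of genes were higher), with 2 at an unadjusted p under 0.05 (351 of all genes) and 0 by DESeq2. On day 2, 20 of 31 were higher in PY (4.35% of genes), and on day 4, 22 (7.03% of genes), with none lower. On day 4 Crat was 4.93-fold [3.15 to 7.73], Hadhb 4.60-fold [2.92 to 7.24], Acadvl 3.92-fold, Decr1 3.43-fold and Cpt2 3.42-fold higher, each with adjusted p between 2.34e-06 and 5.80e-06. Acadl (2.90-fold, adjusted p = 0.014), Acad9 (1.36-fold, adjusted p = 0.00772) and Acaa2 (1.68-fold, adjusted p = 0.0391) passed here. Against EV, Oxct1 was at 0.885 [0.747 to 1.05] and Cpt1a at 1.15-fold [0.886 to 1.49]. All PY libraries exceeded all EV libraries for 7 members on day 4, beside 2.47% of all genes. The day 2 count was 13 without experiment 5 and 11 without experiment 6 (336 and 316 of all genes, in place of 740).

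Genes around the pathway were read from lists of 55 related genes, of which 54 matched and 53 were tested. Between P and EV, 0 passed on day 0, 14 were higher and 1 lower on day 2, and 21 were higher and 1 lower on day 4, beside 2.77% and 5.18% of all genes higher on days 2 and 4. Of the 11 genes tested for uptake and activation, 5 were higher on day 4. Cd36, a fatty acid transporter, had 8.67 ± 12.2 CPM in EV and 658 ± 528 in P on day 4 (n = 6), 75.8-fold [19.2 to 300] (adjusted p = 2.79e-05). Acsl1, which activates long chains to acyl-CoA, had 73.1 ± 25.0 and 2120 ± 1390 CPM, 28.9-fold (adjusted p = 3.13e-07). Acacb, the acetyl-CoA carboxylase that makes the malonyl-CoA which holds back the first carnitine step, was 3.27-fold higher (adjusted p = 0.00158). Cpt1c, an isoform known from neurons and the 1 gene that was lower on day 4, named after its values were seen, had 67.0 ± 8.94 CPM in EV and 45.6 ± 8.89 in P, a ratio of 0.681 (adjusted p = 0.00839).

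Of 13 peroxisomal and auxiliary genes, 5 were higher on day 4, among them Acaa1b, a peroxisomal thiolase, at 19.8-fold (3.4 ± 0.436 to 67.0 ± 63.4 CPM, adjusted p = 1.21e-06), and Ehhadh, the peroxisomal bifunctional enzyme, at 17.3-fold (1.27 ± 0.481 to 22.2 ± 18.0 CPM, adjusted p = 1.61e-06). Of 6 ketone body genes 3 were higher. Of 10 regulators 4 were higher. Ppara, the receptor that governs this pathway in liver, went from 0.0964 ± 0.0568 CPM in EV to 3.89 ± 4.67 in P, 39.1-fold [12.3 to 125] (adjusted p = 2.45e-05), and Ppargc1b, a coactivator, from 2.02 ± 2.05 to 20.3 ± 18.7 CPM, 10.0-fold (adjusted p = 6.38e-04). Ppargc1a, a coactivator known from brown fat and also named after its values were seen, had 11.9 ± 17.2 CPM in EV and 11.9 ± 17.1 in P (adjusted p = 0.999). The propionyl branch (1 of 4 higher), partners of electron transfer flavoprotein (1 of 4) and complex I assembly partners of Acad9 (2 of 5) were also counted, and the lists were not compared in a test.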

How the data were processed

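Per the submitters' processing notes, STAR 2.5.3a, featureCounts 1.5.2 and edgeR 3.22.0 were used with mm10 (GRCm38), and per the labels' protocols libraries were made with a stranded total RNA kit after ribosomal RNA removal. The deposited values are whole-number counts per Ensembl gene. Annotation release, strand setting and the handling of multi-mapping reads are not given in the sources used here. Symbols, positions and exon lengths came from GENCODE M21 (GRCm38), which matched 53706 of 53801 genes and lacked 95.

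From these counts, filterByExpr kept 17015 genes. A robust quasi-likelihood fit in R 4.3.3 (edgeR 4.0.16 with limma 3.58.1 and TMM scaling) took 9 group means over 51 libraries and gave 18 two-sided comparisons. SE was derived from the log2 fold change and F, and intervals are normal approximations. CPM uses TMM-scaled library sizes, and RPKM divides CPM by the combined length of all annotated exons of the gene. The p-values measure the spread between experiments of 1 cell line.

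Libraries of the same labelled experiment deviated together (median r = 0.364 in 192 pairs; -0.0886 in 963 pairs of unlike experiments), so results with a replicate block for the experiment are given where they change a call or a count. The biological coefficient of variation was 0.325 without the block and 0.202 with it. No 2 columns were identical. Alternatives were that block, RLE size factors, no filter, a stricter filter (mean of at least 1 CPM), DESeq2 1.42.0, the compared groups alone, and each library and each experiment left out. Members, lists and tests were chosen with earlier results of these data known. Values were given for members that passed in P versus EV on day 2 or 4 and for all that did not pass on day 4, and for at most 8 related genes by size of change on day 4, with others counted; Cpt1c, Ppargc1a, Kcnk3 and Cox8b were added after their values were seen. The result of 1 related gene is not reported here.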

Additional observations from a re-analysis of the deposited data

Results flagged for a closer look

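In 297 groups of 5 or 6 libraries (each member and the members' summed level), the highest or lowest library was compared with the rest by Dixon's gap, and 24 values stood apart, 22 as the highest and 2 as the lowest. Chance would flag about 1 group in 20 if the groups were independent. The members share libraries, so that rate is no measure for this count. Of the 24 values, 13 fell on P day 2 replicate 5, where the summed level was 5130 CPM against 2320 to 3080 in the other 5 libraries. In that library Cpt2 had 160 CPM, Crat 491, Acadm 413, Acads 145, Hadh 158, Hadha 706 and Acaa2 218. It also had 105 CPM for Eci1, 288 for Ech1, 185 for Etfdh, 63.3 for Acot2 and 201 for Acat1. Fabp4 was 4420 CPM there, the highest of the P libraries of that day, and its part in these values was not tested.

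The other flags were scattered over 9 libraries. In EV, Mlycd had 14.7 CPM in day 4 replicate 2, Acads 54.5 and Etfb 25.7 in day 4 replicate 1, Acadvl 63.2 in day 0 replicate 4 and Acot2 28.1 in day 2 replicate 2, each the highest of its group, while Echs1 had the lowest value of its group, 17 CPM, in day 2 replicate 4. Acss1 had 0.0371 CPM in EV day 0 replicate 4 and 0.013 in EV day 2 replicate 1, with 0 in the rest of each group. Acadl was highest in P day 0 replicate 3 at 71.9 CPM, and Acad11 in PY day 0 replicate 3 at 20.9. Pcca was lowest in PY day 4 replicate 4, at 11.8 CPM.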

How the results depend on the processing

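No member changed direction between P and EV under any alternative tried, over 742 values on day 2 (18 lost and 16 gained the call) and 743 on day 4 (34 lost, 24 gained). With the experiment as a replicate block, the count of members higher was 22 for P versus EV on day 2, 8 for EV from day 0 to 2, 2 for EV, 7 for P and 2 for PY from day 2 to 4, and 3 for the change of P versus EV from day 0 to 4. The block moved no other count by more than 1.5 times. With the compared groups alone, EV from day 0 to 2 gave 7, P from day 2 to 4 gave 0 and the change from day 0 to 4 gave 7. Over all genes these fits gave 376, 0 and 164 higher. DESeq2 gave 2 for P from day 2 to 4 and 4 for the change (310 and 195 of all genes). The stricter filter gave 2 and 1 (136 and 59 of all genes), and no filter gave 0 for P from day 2 to 4 (15 of all genes).

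As experiments were left out in turn, P versus EV ran from 5 to 15 on day 2 and from 13 to 21 on day 4, and PY versus EV from 11 to 22 on day 2 and from 20 to 26 on day 4. Over all genes, those higher in P than in EV ran from 171 to 527 on day 2 and from 526 to 1057 on day 4. Those higher in PY than in EV ran from 316 to 910 and from 843 to 1420. Counts from day 0 to 2 ran from 1 to 6 in EV, 12 to 24 in P and 22 to 27 in PY. Over all genes, those higher ran from 126 to 601 in EV, 405 to 1411 in P and 1008 to 2324 in PY. Member counts from day 2 to 4 ran from 0 to 2 in P and in PY. Over all genes, those higher ran from 0 to 231 in P and from 0 to 141 in PY. The change from day 0 to 4 ran from 0 to 3, and over all genes from 0 to 110. As single libraries were left out, EV from day 0 to 2 ran from 2 to 5 and P from day 2 to 4 from 0 to 6. PY from day 2 to 4 ran from 0 to 1, and the change from day 0 to 4 from 0 to 4. All-gene counts with single libraries left out are not given here, so these ranges are not set against those of all genes.

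All-gene counts for P versus EV were 471 higher and 10 lower on day 2 (795 and 146 with the block) and 881 and 33 on day 4 (1343 and 374 with the block). Depth limits the scarce members: Acss1 never exceeded 4 counts and Cpt1b 59 counts in a library.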
